A study of Mus musculus with 9 samples.

Results

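The 8 genes described here, Sebox, Prdm8, Irx5, Irx6, Car8, Cabp5, Scgn and Grik1, are transcription factors and markers of subtypes of retinal bipolar cells. They were picked by symbol in the platform annotation. All 8 were measured, each by 1 probe set, among 24259 genes in all. Whole retinas of mice on a mixed C57Bl/6x129SvJ background, collected at postnatal day 8, had been profiled on Affymetrix whole-transcript arrays with 3 arrays for each of 3 genotypes: WT, Rb KO, a knockout of the retinoblastoma gene, and Rb/p107 DKO (hereafter DKO), a knockout of that gene and its relative p107. Each array is a biological replicate per the series design, and 9 arrays in all limit the precision. The labels name no agent for any group. The sources used here do not name the promoter or Cre line behind the knockouts, nor the cells that lost the genes.

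Bipolar cells carry the signal of rods and cones to amacrine and ganglion cells. Rod bipolar cells and the ON types of cone bipolar cells answer light through the metabotropic glutamate receptor mGluR6, and the OFF types through ionotropic kainate and AMPA receptors. They are among the last neurons of the retina to be born, and the identity of each type is set by combinations of transcription factors and read from the calcium-binding proteins and receptors it carries. The 8 genes include 4 transcription factors (Sebox, Prdm8, Irx5, Irx6), 3 cytoplasmic marker proteins (Car8, Cabp5, Scgn) and 1 transmitter receptor subunit (Grik1).

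All values are log2 intensities, in which a difference of 1 is a doubling. A reading counts as above background when it exceeds a line drawn on its own array, below which 95% of negative controls lie. That line was at 7.94 to 8.34 for WT, at 8.32 to 8.50 for Rb KO and at 8.29 to 8.43 for DKO. Between 27.2% and 36.4% of genes passed that line in an array. Rb1, the targeted gene, was at 10.005 to 10.46 in the WT arrays, 9.85 to 10.02 in those of Rb KO and 9.74 to 10.002 in those of DKO. Its log2 fold change was -0.31 (SE 0.117, adjusted p = 0.0793) for Rb KO and -0.36 (SE 0.117, adjusted p = 0.0423) for DKO. Whether its probes lie in the deleted part was not determined, so these values do not show how much of the gene was lost. The p107 gene, Rbl1, is not analysed here. The arrays Rb KO replicate 3 and DKO replicate 2 stood apart from the others of their groups in several of the genes below. DKO replicate 2 also stood apart in Xist (5.47, against 11.44 to 12.15 in the other 8 arrays) and in the mean level of 4 lens genes (9.71, against 6.91 to 7.98). For the 8 genes, results that rest on these arrays are given with and without them. Fold changes of other genes are given with all arrays only.

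The genes of the 3 marker proteins and the receptor subunit fell in both mutants, by 2.33-fold to 4.35-fold. These sizes rest in part on background readings, since most mutant readings of the 4 genes were not above background. Sebox fell and Prdm8 rose in both. In Rb KO against WT, 5 of the 8 genes fell, 1 rose and 2 did not pass (limma with Benjamini-Hochberg adjustment over all genes, adjusted p under 0.05). Of all genes tested, 24.4% were called in this comparison, 14.3% as lower and 10.2% as higher. In DKO against WT, 6 fell and 2 rose, against 29.3% of all genes called, 17.1% lower and 12.2% higher. Many of all genes were not above background. When only the 7843 genes above background in at least 3 arrays were tested, 4020 were called in Rb KO and 4330 in DKO. All 7 members among these 7843 genes, which leave out Irx6, were called in each. Sebox met that filter only through its 3 WT arrays. The 3 WT arrays of Car8, Cabp5, Scgn and Grik1 alone would also have met it. The calls of these 5 genes are therefore not independent of the filter. The median log2 fold change of the 8 was -1.22 in Rb KO and -1.29 in DKO, against -0.05 and -0.06 over all genes. In DKO against Rb KO none of the 8 passed in limma, 3 had an unadjusted p under 0.05, and 2.54% of all genes were called, 1.34% as higher and 1.21% as lower. All 8 were called in the F test for any difference among the groups, as were 28.7% of all genes. The arrays of WT and each mutant did not overlap for any of the 8, which held for 35.8% of all genes in Rb KO and 43.9% in DKO. The arrays of the 2 mutants did not overlap for 3 of the 8 (Prdm8, Irx5 and Irx6), against 22.1% of all genes. Both comparisons use the same 3 WT arrays. In a whole retina, fewer cells of a type and less RNA per cell cannot be told apart.

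**Figure D1:**
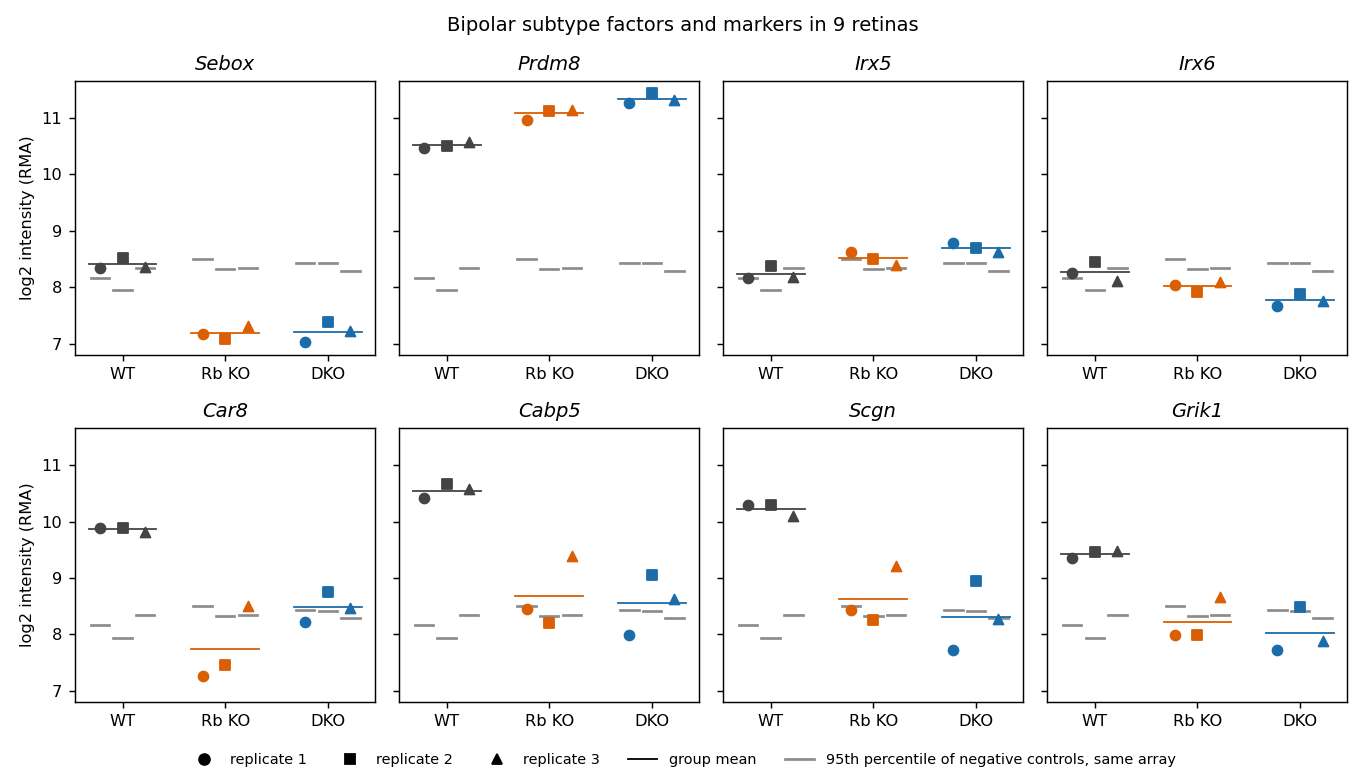
Log2 intensity (vertical axis) of the 8 genes in each of 9 retinas, by group (horizontal axis), with symbols for the replicate, a line at the group mean and a grey bar at the 95th percentile of the negative controls of the same array. Car8, Cabp5, Scgn and Grik1 lie well above the grey bars in WT and near or below them in most mutant arrays, while Prdm8 lies far above them in all 9.

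Prdm8 encodes a PR domain zinc finger protein that works as a repressor and is needed for rod bipolar cells and an OFF cone bipolar type. It was above background in all arrays. Its WT readings were 10.47, 10.51 and 10.57, its Rb KO readings 10.97, 11.13 and 11.15, and its DKO readings 11.26, 11.44 and 11.32. Each group lay wholly above the one before, in the order WT, Rb KO, DKO. The rise was 0.56 on the log2 scale (SE 0.079, 1.48-fold, adjusted p = 0.000526) in Rb KO and 0.82 (SE 0.079, 1.76-fold, adjusted p = 3.28e-05) in DKO. The step from Rb KO to DKO was 0.26 (95% interval 0.08 to 0.43) and did not pass (adjusted p = 0.145). A long noncoding RNA gene annotated within the span of Prdm8, A730035I17Rik, rose by nearly the same amounts, 0.58 (SE 0.088) in Rb KO and 0.76 (SE 0.088) in DKO. The strand and the part of the transcripts that each probe set reads were not determined here, so the signals of this pair may overlap.

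Among 9 other PR domain genes measured, of 13 listed, 5 rose and none fell in Rb KO, and 3 rose and 1 fell in DKO. Prdm13, a factor of amacrine cell fate, rose by 1.57 (SE 0.136, adjusted p = 1.96e-05) in Rb KO and 2.02 (SE 0.136, adjusted p = 1.9e-06) in DKO. Prdm1, which encodes Blimp1 and holds photoreceptor precursors back from bipolar fate, rose by 1.10 (SE 0.090, adjusted p = 1.29e-05) in Rb KO. In DKO it stood at 0.22 (adjusted p = 0.0933). The difference between the mutants was itself called, at -0.88 (SE 0.090, adjusted p = 0.000468). Prdm10 rose by 0.36 (SE 0.087) and 0.38 (SE 0.087). Prdm15 and Prdm9 were at or near background.

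Sebox encodes a homeobox factor. Its WT readings were 8.34, 8.52 and 8.35, its Rb KO readings 7.17, 7.08 and 7.31, and its DKO readings 7.03, 7.39 and 7.22. The WT arrays were just above background and none of the 6 mutant arrays was, so the size of the fall was not measured. The fitted difference was -1.22 (SE 0.104, adjusted p = 1.9e-05) in Rb KO and -1.19 (SE 0.104, adjusted p = 1.53e-05) in DKO. Against the percentile of the negative controls, taken per array where the gene read below it, the fall was at least 1.01-fold in Rb KO and at least 1.02-fold in DKO. The neighbouring gene Vtn, which encodes vitronectin, also fell, at -2.32 on the log2 scale (SE 0.243, adjusted p = 7.66e-05) in Rb KO and -1.88 (SE 0.243, adjusted p = 0.000221) in DKO. Sarm1, on the far side of Vtn, fell too (-0.40 and -0.38, adjusted p = 0.0141 and 0.0157). Tmem199, the neighbour on the other side, did not pass in either mutant (-0.20 and -0.21, adjusted p = 0.134 and 0.0937).

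Irx5 and Irx6 encode Iroquois homeobox factors of OFF cone bipolar cells and belong to 1 Iroquois cluster on chromosome 8. Both read close to background, and in DKO they moved in opposite directions. WT readings of Irx5 were 8.16, 8.39 and 8.19, Rb KO readings 8.63, 8.50 and 8.40, and DKO readings 8.78, 8.70 and 8.63. Of these, 1 WT array and all 6 mutant arrays were above background, and the DKO arrays lay above all others, though DKO replicate 3 (8.6330) exceeded Rb KO replicate 1 (8.6306) by almost nothing. Irx5 stood at 0.27 (SE 0.089, adjusted p = 0.0503) in Rb KO and rose by 0.46 (SE 0.089, 1.37-fold, adjusted p = 0.00295) in DKO. WT readings of Irx6 were 8.26, 8.44 and 8.12, Rb KO readings 8.05, 7.91 and 8.09, and DKO readings 7.66, 7.88 and 7.76. Only 2 WT arrays were above background, so its fall was not measured in size. Irx6 stood at -0.26 (SE 0.098, adjusted p = 0.0806) in Rb KO and fell by 0.50 (SE 0.098, adjusted p = 0.00298) in DKO. Between the mutants Irx5 differed by 0.19 (95% interval -0.01 to 0.39, adjusted p = 0.393) and Irx6 by -0.24 (95% interval -0.46 to -0.03, adjusted p = 0.288).

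The Irx5 value in Rb KO lay close to the threshold. It passed without Rb KO replicate 3 (0.32, adjusted p = 0.0406), without WT replicate 2 (0.34, adjusted p = 0.0149) and when only genes above background in at least 3 arrays were tested (adjusted p = 0.0235). It also passed with renewed quantile normalization (adjusted p = 0.0325), array weights (adjusted p = 0.0335) and trend and robust variance moderation (adjusted p = 0.0441). Its adjusted p ran from 0.0149 to 0.158 over the alternatives tried. Irx6 in Rb KO passed without WT replicate 3 (-0.34, adjusted p = 0.0377) and with renewed quantile normalization (-0.27, adjusted p = 0.0319). Under that normalization all 8 genes were called in Rb KO, 6 of them lower. Its call in DKO ended when the separation of positive and negative controls of each array was added as a covariate (-0.38, adjusted p = 0.0546). The other 4 Iroquois genes were dim, 3 of them not above background in any array. Irx4, with 1 WT array above background, fell in both mutants (-0.49, SE 0.141, adjusted p = 0.0269, and -0.66, SE 0.141, adjusted p = 0.00515), and Irx2 was called in DKO on background readings.

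**Figure D2:**
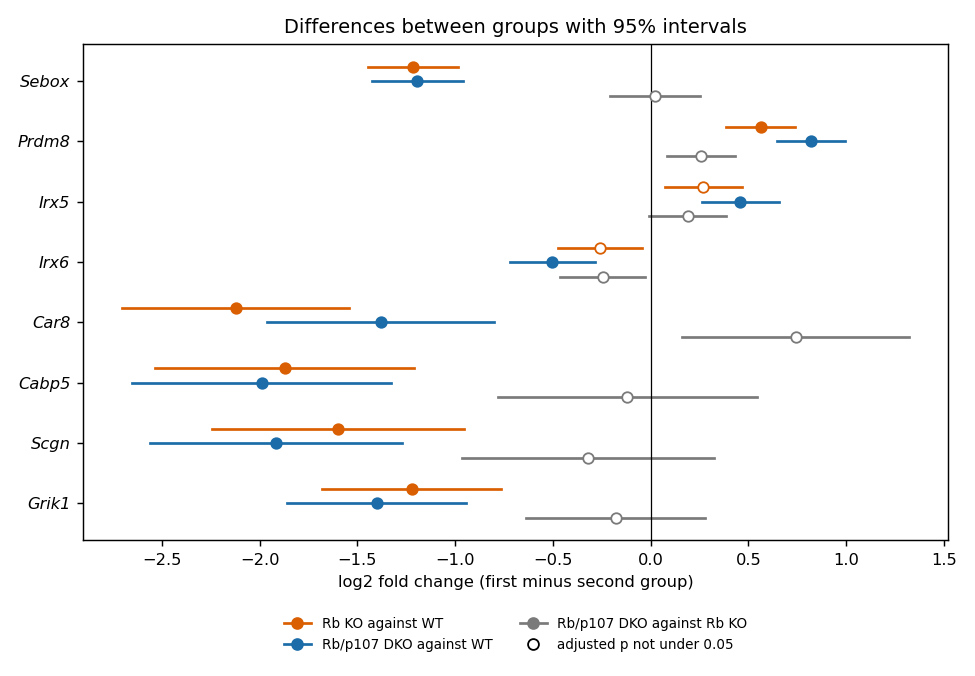
Log2 fold change (horizontal axis) of each of the 8 genes in the 3 comparisons, with 95% intervals from limma; open symbols did not pass. The 4 markers have the widest intervals, and none of the 8 differences between DKO and Rb KO passed.

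Car8 encodes a carbonic anhydrase-related protein without catalytic activity that binds the inositol trisphosphate receptor. Its WT readings were 9.88, 9.89 and 9.82, its Rb KO readings 7.26, 7.45 and 8.51, and its DKO readings 8.22, 8.75 and 8.48. The 3 WT retinas were nearly identical, and Rb KO replicate 3 stood more than 1 log2 unit above the other Rb KO retinas. The log2 fold change was -2.12 (SE 0.262, 4.35-fold lower, adjusted p = 0.000226) in Rb KO and -1.38 (SE 0.262, 2.60-fold lower, adjusted p = 0.00255) in DKO. With 1 Rb KO array and 2 DKO arrays above background, both sizes rest in part on background readings. Its mean was higher in DKO than in Rb KO. The difference of 0.74 (95% interval 0.16 to 1.32) did not pass (adjusted p = 0.215). It passed without Rb KO replicate 3, at 1.13 (adjusted p = 0.00397), and without both Rb KO replicate 3 and DKO replicate 2, at 0.99 (SE 0.119, adjusted p = 0.00488), where the retained Rb KO arrays were both below background.

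Of 9 other carbonic anhydrase genes measured, 6 were not above background in any array. Car10, a related protein without catalytic activity that was well above background in all groups, did not pass (-0.11, SE 0.211, in Rb KO and -0.21, SE 0.211, in DKO). Car11, the third such protein, fell by 0.32 (SE 0.086, adjusted p = 0.0207) in Rb KO and stood at -0.22 (adjusted p = 0.0773) in DKO. Whether they differ from Car8 was not tested. Car5b, a mitochondrial carbonic anhydrase, was called lower with no mutant array above background (-1.18 and -1.22, SE 0.244). Car12 (-0.57 and -0.64, SE 0.093) was called lower in both mutants and Car15 higher in DKO (0.43, SE 0.113), on background readings. In all, 4 of the 9 fell and none rose in Rb KO, and 3 fell and 1 rose in DKO.

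Cabp5 encodes a calcium-binding protein of rod bipolar cells and some cone bipolar types that modulates calcium channels. Its WT readings were 10.41, 10.66 and 10.57, its Rb KO readings 8.45, 8.21 and 9.39, and its DKO readings 7.99, 9.06 and 8.63. Rb KO replicate 3 and DKO replicate 2 were the highest of their groups and still more than 1 log2 unit below every WT retina. The log2 fold change was -1.87 (SE 0.300, 3.66-fold lower, adjusted p = 0.00116) in Rb KO and -1.99 (SE 0.300, 3.97-fold lower, adjusted p = 0.000605) in DKO, where 1 and 2 of the 3 mutant arrays were above background. Between the mutants it differed by -0.12 (95% interval -0.78 to 0.54).

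The RefSeq table of promoters on GRCm38.p6 held 4 of the 8 genes, Sebox, Prdm8, Cabp5 and Scgn. The 250 bases before each annotated start were searched on both strands for the core of the photoreceptor and bipolar factors OTX2 and CRX (TAATCC or GGATTA), a bHLH E-box (CAGATG or CATCTG) and an E2F core (TTTCCCGC or GCGGGAAA). None of these motifs contains another. Of 32851 windows of this length in the table, 6.25% held the first, 14.4% the second and 0.895% the third. The first occurred at 2 places in the Cabp5 window, a count that 0.295% of all windows reached, and none of the 3 motifs occurred in the windows of Sebox, Prdm8 and Scgn. A match is a description of the letters and not a measured binding site. The windows of Cabp5 (chr7:13397905-13398154, plus strand), with the matches in capitals, and of Sebox (chr11:78503263-78503512, plus strand), both genes that fell in both mutants, are shown for comparison. The Sebox window lies directly before the annotated span of the gene. That of Scgn lies partly inside its annotated span, so that only part of it lies before the outermost start. Those of Cabp5 and Prdm8 lie wholly inside the annotated spans, before an internal start, so that the region before the outermost start was not searched.
Cabp5: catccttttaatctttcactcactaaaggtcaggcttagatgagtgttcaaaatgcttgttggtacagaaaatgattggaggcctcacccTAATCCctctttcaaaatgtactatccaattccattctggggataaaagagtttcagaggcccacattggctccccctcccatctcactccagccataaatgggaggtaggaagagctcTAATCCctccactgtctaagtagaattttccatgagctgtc
Sebox: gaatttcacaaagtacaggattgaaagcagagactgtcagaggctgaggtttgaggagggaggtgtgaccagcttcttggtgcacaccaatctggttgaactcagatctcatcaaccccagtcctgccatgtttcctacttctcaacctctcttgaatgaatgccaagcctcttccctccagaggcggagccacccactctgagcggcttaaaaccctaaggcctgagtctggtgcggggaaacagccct
The matches in Cabp5 begin 160 and 41 bases before that internal start.

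Scgn encodes secretagogin, an EF-hand protein of a subset of cone bipolar cells. Its WT readings were 10.29, 10.30 and 10.10, its Rb KO readings 8.43, 8.25 and 9.21, and its DKO readings 7.72, 8.94 and 8.28. Again Rb KO replicate 3 and DKO replicate 2 were the highest of their groups, and each was the only array of its group above background. The log2 fold change was -1.60 (SE 0.292, 3.03-fold lower, adjusted p = 0.00257) in Rb KO and -1.92 (SE 0.292, 3.77-fold lower, adjusted p = 0.000639) in DKO. The difference between the mutants was -0.32 (95% interval -0.96 to 0.33).

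Of 12 other calcium-binding protein genes measured, of 15 listed, 2 rose and 6 fell in Rb KO and 4 rose and 6 fell in DKO. Cabp4, a relative of Cabp5 found at photoreceptor terminals, fell in both (-2.47 and -1.99, SE 0.267), as did Calb2, which encodes calretinin of amacrine and ganglion cells (-1.27 and -1.001, SE 0.133). Hpca, which encodes hippocalcin, rose by 0.89 (SE 0.139) and 1.28 (SE 0.139), and Necab1 by 0.46 (SE 0.116) and 0.74 (SE 0.116). The calcium-binding genes therefore moved in both directions.

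Grik1 encodes the GluK1 subunit of kainate receptors, through which OFF bipolar cells receive glutamate from photoreceptors. Its WT readings were 9.36, 9.46 and 9.48, its Rb KO readings 7.98, 8.00 and 8.65, and its DKO readings 7.72, 8.49 and 7.89. All WT arrays lay above all mutant arrays, and the single mutant array per group above background was again Rb KO replicate 3 and DKO replicate 2. The log2 fold change was -1.22 (SE 0.207, 2.33-fold lower, adjusted p = 0.00163) in Rb KO and -1.40 (SE 0.207, 2.64-fold lower, adjusted p = 0.000528) in DKO, with a difference between the mutants of -0.18 (95% interval -0.64 to 0.28).

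None of the other kainate receptor subunit genes was called lower, and the only fall was in the auxiliary subunit gene Neto1. Of 6 subunit and auxiliary subunit genes measured, 3 rose, 1 fell and 2 did not pass in each mutant. Grik3, which encodes GluK3, rose by 1.56 (SE 0.115, adjusted p = 6.02e-06) in Rb KO and 1.34 (SE 0.115, adjusted p = 1.34e-05) in DKO, from a WT level above background in 1 array. Grik2, which encodes GluK2, rose by 0.61 (SE 0.136) and 0.84 (SE 0.136). The auxiliary subunit gene Neto2 rose by 0.67 (SE 0.091) and 0.74 (SE 0.091). Neto1, the other auxiliary subunit gene, was called lower at -0.53 (SE 0.169, adjusted p = 0.0424) and -0.50 (SE 0.169, adjusted p = 0.0462), with no mutant array above background. Its DKO arrays overlapped those of WT. Grik5, which encodes GluK5 and was above background in all arrays, did not pass (0.05, SE 0.118, and -0.10, SE 0.118).

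**Figure D3:**
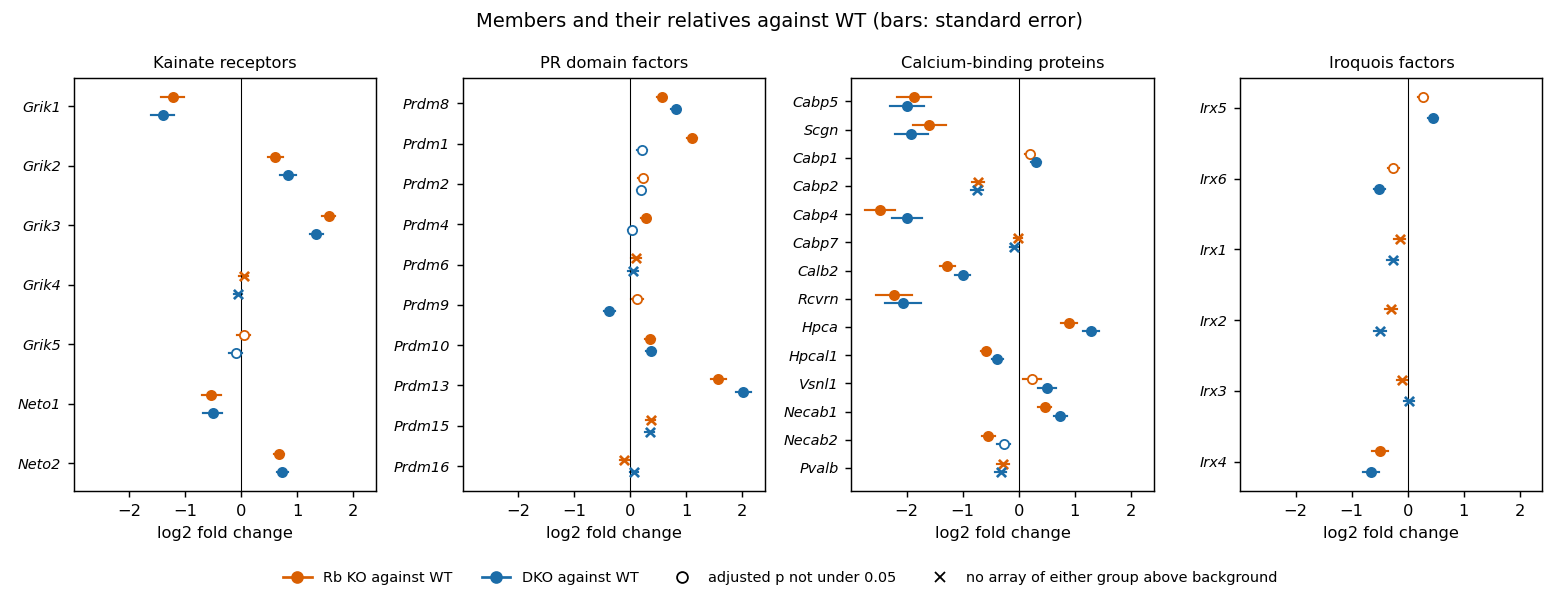
Log2 fold change against WT (horizontal axis) in Rb KO and DKO for Grik1, Prdm8, Cabp5, Scgn, Irx5 and Irx6 and their measured relatives in 4 families, with bars of 1 standard error; open symbols did not pass and crosses mark genes with no array of either group above background. Grik1 fell while Grik2, Grik3 and Neto2 rose, and Cabp5, Scgn, Cabp4 and Rcvrn fell while Hpca and Necab1 rose.

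The 4 markers varied between mutant retinas far more than most genes did. The SD over 3 arrays of Car8 was 0.040 in WT, 0.670 in Rb KO and 0.267 in DKO, and that of Cabp5 0.127, 0.624 and 0.536. The median SD over all genes was 0.125, 0.099 and 0.072 in the 3 groups. In Rb KO the SDs of Car8, Cabp5, Scgn and Grik1 exceeded those of 99.95%, 99.92%, 99.80% and 99.16% of all genes, and in DKO those of 97.4%, 99.70%, 99.79% and 99.42%. In WT the same 4 exceeded between 7.11% and 51.1%. The fit pools the spread of the 3 groups, so the standard errors of these 4 genes are set mostly by the mutant arrays. Those standard errors ran from 0.207 to 0.300. Some rod, cone and mGluR6 cascade genes had larger ones, such as Gnat1 (0.373), Pde6c (0.402) and Trpm1 (0.328). Others had smaller ones, such as Nrl (0.131), Pde6h (0.141) and Nyx (0.089). Of these, Pde6h had no mutant array above background and Nyx no array of any group.

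Rb KO replicate 3 was the highest Rb KO array and DKO replicate 2 the highest DKO array in 7 of the 8 genes, all but Irx5. In Sebox and Irx6 no mutant reading was above background. In Irx6 and Prdm8 Rb KO replicate 3 led by little, at 8.0882 against 8.0456 and at 11.1457 against 11.1321. The pair Rb KO replicate 3 and DKO replicate 2 was singled out after the values were seen. Over all genes both were highest in 11.2%, among the 2710 genes called lower in both mutants in 36.6%, and among the 2074 called higher in both in 2.17%. Both were lowest in 4.24% of the first of these sets and in 38.2% of the second. Prdm8 rose and was also highest in these arrays, though its lead in Rb KO was within the spread of that group (SD 0.0995). In Car8, Cabp5, Scgn and Grik1, Rb KO replicate 3 lay 1.15, 1.06, 0.87 and 0.67 above the mean of the other 2 Rb KO arrays, and DKO replicate 2 lay 0.41, 0.74, 0.94 and 0.68 above the other 2 DKO arrays. Without both arrays the log2 fold changes of these 4 genes were -2.51, -2.22, -1.89 and -1.44 for Rb KO and -1.52, -2.24, -2.23 and -1.63 for DKO, with adjusted p between 7.05e-07 and 4.84e-05. No call of Sebox, Prdm8, Irx5 or Irx6 against WT changed without them.

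Markers of other cells were also high in these arrays. Both arrays were highest in 9 of 10 measured genes of the mGluR6 cascade, 6 of 6 rod genes, 4 of 6 cone genes, 6 of 8 ganglion cell genes and 2 of 4 rod bipolar genes. They were both highest in 2 of 11 cone bipolar markers, 0 of 6 bipolar fate factors, 0 of 6 kainate receptor genes, 0 of 4 cycling cell genes and 0 of 3 horizontal cell genes. The mean level of the 6 rod genes for Rb KO was 10.35, 10.08 and 11.01 by replicate, for DKO it was 10.09, 11.01 and 10.77, and for WT 11.96 to 12.04. The mean level of the 4 cycling cell genes was lowest of its group in these arrays, at 10.73, 10.89 and 10.42 by replicate for Rb KO and 11.10, 10.87 and 10.93 for DKO, where WT arrays had 6.69 to 6.99. The part of these cell types, and of the lens genes in DKO replicate 2, in the values of the 8 genes was not tested.

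**Figure D4:**
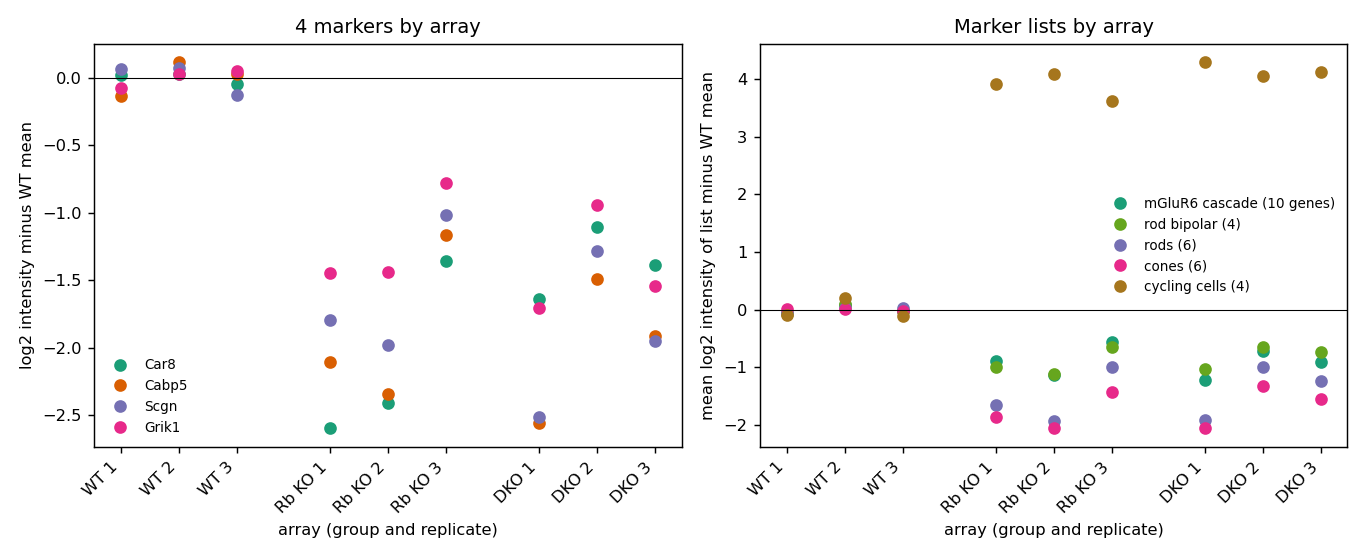
Left, log2 intensity of Car8, Cabp5, Scgn and Grik1 minus the WT mean (vertical axis) in each array (horizontal axis); right, the same for the mean of 5 marker lists, on an axis of its own. Rb KO replicate 3 and DKO replicate 2 lie nearest to WT in their groups for the 4 markers and for the rod, cone and mGluR6 cascade lists.

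Other bipolar genes were taken from lists of fate factors, the mGluR6 cascade, and rod and cone bipolar markers, of which 31 of 51 were measured. In Rb KO 17 fell, 3 rose and 11 did not pass, and in DKO 17 fell, 4 rose and 10 did not pass. Of the falls, 7 in Rb KO and 8 in DKO had no array of the lower group above background, so that their size was not measured. The median log2 fold change was -0.53 in Rb KO and -0.51 in DKO. Between the mutants 1 of the 31 rose, 3 fell and 27 did not pass.

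In the mGluR6 cascade of ON bipolar cells 8 of 10 genes fell in Rb KO and 9 of 10 in DKO. Gnb5, a G protein subunit of the complex that ends the mGluR6 signal, fell in both mutants (-1.34 and -1.16, SE 0.166), as did Rgs7bp, the gene of its membrane partner (-0.86 and -0.57, SE 0.121). Gnb3, a G protein subunit shared by cones and ON bipolar cells, stood at -0.33 (adjusted p = 0.15) in Rb KO and fell by 1.17 (SE 0.153, adjusted p = 0.000246) in DKO, and the mutants differed (-0.84, adjusted p = 0.0178). Nyx was called lower in both mutants on background readings (-0.63 and -0.87, SE 0.089). All 4 rod bipolar markers fell in Rb KO and 3 of 4 in DKO, with Prkca, the protein kinase C of rod bipolar cells, at -1.32 (SE 0.176) and -1.35 (SE 0.176) and Pcp2 at -1.38 (SE 0.219) and -1.11 (SE 0.219).

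Bipolar fate factors moved in both directions in Rb KO, and none was called lower in DKO. Of 6 measured, 3 rose and 1 fell in Rb KO and 2 rose in DKO. Nfib, a nuclear factor of late-born retinal cells, rose by 1.29 (SE 0.123) and 1.81 (SE 0.123), and the bHLH factor gene Neurod4 by 0.70 (SE 0.096) and 0.53 (SE 0.096). Isl1, a factor of ON bipolar and ganglion cells, fell by 0.60 (SE 0.160, adjusted p = 0.0191) in Rb KO and stood at -0.41 (adjusted p = 0.0814) in DKO. Otx2, a factor of photoreceptors and bipolar cells, rose by 0.42 (SE 0.082, adjusted p = 0.0035) in Rb KO, stood at -0.15 (adjusted p = 0.217) in DKO, and differed between the mutants (-0.57, adjusted p = 0.00469).

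Of 11 cone bipolar subtype markers measured, 4 fell and none rose in Rb KO, and 5 fell and 2 rose in DKO. Every gene of these that fell, namely Kcng4, Chrm2, Cpne9 and Neto1 in both mutants and Sox6 in DKO, had no array above background in the mutant where it fell. Kcng4 had the lowest p (-1.65 and -1.45, SE 0.186), followed by Chrm2 in Rb KO (-0.78, SE 0.098) and Sox6 in DKO (-0.67, SE 0.093). Slitrk5 rose by 0.39 (SE 0.073, adjusted p = 0.0023) and Prkar2b by 0.23 (SE 0.073, adjusted p = 0.0382) in DKO, both above background in all arrays. The median of the list was -0.20 in Rb KO and -0.18 in DKO, nearer to that of all genes than the -0.75 and -1.01 of the mGluR6 cascade.

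Markers of other retinal neurons that may also carry some of the 8 genes moved as follows. Amacrine cell genes, among them Calb2 and Prdm13 of the lists above, rose in 2 of 4 cases and fell in 1 in each mutant, and the list's mean level per array was 9.98 to 10.17 for WT, 10.24 to 10.30 for Rb KO and 10.54 to 10.57 for DKO. All 8 ganglion cell genes fell in both mutants, with a mean level of 9.49 to 9.75 for WT, 8.77 to 9.25 for Rb KO and 8.73 to 9.01 for DKO. All 6 rod genes fell in both, and 5 and 6 of 6 cone genes. Muller glia genes fell in 3 of 5 cases in both and none rose, with a mean level of 10.03 to 10.26 for WT, 9.64 to 9.74 for Rb KO and 9.62 to 9.83 for DKO. Of 3 horizontal cell genes 1 rose and none fell in each mutant, and of 5 pigment epithelium genes, 3 of them not above background in any array, 4 fell. In the rod list the lowest p-values among falls belonged to the rod factor Nrl (-0.90 and -1.53, SE 0.131) in both mutants, to Pde6a in Rb KO (-2.39, SE 0.350) and to Pde6b in DKO (-1.35, SE 0.200). In the cone list they belonged to Pde6h (-2.08 and -1.93, SE 0.141), Opn1mw in Rb KO (-3.73, SE 0.347) and Opn1sw in DKO (-1.50, SE 0.148), with no mutant array above background for Pde6h and no Rb KO array for Opn1mw. In the ganglion cell list they belonged to Sncg (-0.81 and -0.84, SE 0.143), Thy1 in Rb KO (-0.66, SE 0.128) and Pou4f1 in DKO (-0.77, SE 0.133, no DKO array above background), and in the Muller glia list to Aqp4 (-0.95 and -0.94, SE 0.115), with no mutant array above background, and Rlbp1 (-0.73 and -0.94, SE 0.114). The amacrine factor Tfap2a rose by 0.36 and 0.79 (SE 0.112), and the horizontal cell gene Onecut2 by 0.58 and 0.81 (SE 0.119) near background. Pmel (-1.56 and -1.58, SE 0.135) and Ttr (-1.94 and -2.19, SE 0.172) of the pigment epithelium list had no mutant array above background. The proliferation gene Mki67 rose by 5.04 and 5.18 (SE 0.130) and Top2a by 4.67 and 5.12 (SE 0.129), both with no WT array above background. The lens crystallin genes Cryaa (1.995, SE 0.498) and Cryba1 (2.33, SE 0.586) rose in DKO. The mean level of the 4 lens genes by DKO replicate was 7.98, 9.71 and 7.73, so replicate 2 stood far above the others. Neither crystallin gene passed in DKO against Rb KO (adjusted p = 0.119 for each). The part of all these markers in the values of the 8 genes was not tested.

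The genes whose readings were most like each of the 8, by Pearson correlation of log2 intensity over the 9 arrays, came from a pool of 6333 genes. These were above background in at least 3 arrays, and the pool leaves out olfactory receptors, small RNAs and genes with only a predicted or RIKEN symbol. These values are descriptions, since the arrays share the difference between WT and mutants. Cabp5 was most like Frmpd2 (0.995), Pde6b (0.995) and Gucy2f (0.995), the last a photoreceptor guanylate cyclase gene and Pde6b the rod phosphodiesterase subunit. Scgn was most like the photoreceptor and bipolar calcium channel gene Cacna1f (0.991), Klhl18 (0.990) and Pde6b (0.990). Grik1 was most like the potassium channel gene Kcnma1 (0.998), Mbnl2 (0.991) and the mGluR6 cascade gene Gpr179 (0.990). Car8 was most like the nicotinic receptor gene Chrna6 (0.982), Tsr2 (0.981) and Ric8b (0.980). Sebox was most like Taok3 (0.997), Ap2a2 (0.995) and Sntb2 (0.994). Of the genes that rose, Prdm8 was most like the zinc finger factor genes Zfpm2 (0.991) and Zfp57 (0.983) and Ddias (0.978), and Irx5 most like Setbp1 (0.985), Cmtm3 (0.978) and Lrp3 (0.977). Irx6 was most like Pnpla6 (0.985), AU040320 (0.984) and Acaa1a (0.981).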

How the data were processed

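The deposited values are log2 intensities of 59649 probe sets, which the authors made with RMA, the robust multi-array average, as the submitters' processing notes name it. The sources used here give neither the software version nor the annotation build. Symbols came from the platform annotation, updated through a GRCm38.p6 gene table. Of 52917 transcript clusters 24646 had 1 symbol, 1795 several and 26476 none listed here. A gene was read at its probe set with the highest mean, with no filter, which gave 24259 genes.

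Group means of all 9 arrays were fitted with limma 3.58.1 under R 4.3.3 (6 residual and 4.69 prior degrees of freedom, no trend, not robust), with adjustment over all genes. The script was tested on simulated data. A bound written with "at least" uses, per array of the lower group, the larger of its reading and the 95th percentile of the negative controls.

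The genes and lists were chosen with earlier results of these data known. The rule named the 8 genes, up to 2 rising and 2 falling called genes with the lowest p from each list and comparison against WT, and the 3 genes most like each of the 8. Relatives, neighbours and Cpne9 beyond this rule were named after their values were seen. Plots used matplotlib 3.10.9 and Python 3.11.15.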

Additional observations from a re-analysis of the deposited data

Results flagged for a closer look

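In 8 genes of the lists used here, none of them among the 8 members, the effects of the 2 mutants against WT differed by a test of the difference itself, DKO against Rb KO in limma with adjustment over all genes. Of all 24259 genes, 617 (2.54%) were called in this comparison. Prdm1 differed by -0.88 (adjusted p = 0.000468), Gnb3 by -0.84 (adjusted p = 0.0178), Otx2 by -0.57 (adjusted p = 0.00469) and Slitrk5 by 0.40 (adjusted p = 0.018). The rod factor Nrl differed by -0.63 (adjusted p = 0.0304), above background in 3 Rb KO arrays and 2 DKO arrays. Prdm9 at -0.49 (adjusted p = 0.0306), Sox6 at -0.47 (adjusted p = 0.0281) and Gngt2 of the cone list at -0.56 (adjusted p = 0.0269) also differed, all with no array of either mutant above background.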

How the results depend on the processing

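For the 8 genes in 3 comparisons, 436 of 453 values recomputed under the alternatives kept their direction and their side of the threshold. Much of this was fixed in advance. With 1 probe set per gene, both probe set alternatives returned the same fold changes. The background filter, variance moderation, 2-group fits, replicate block and leaving out an array of the third group also kept them. These alternatives could alter only the p-values. Without Rb KO replicate 3, DKO against Rb KO turned to 0.24 for Cabp5 and 0.04 for Grik1, and without DKO replicate 1 to 0.17 for Cabp5. For Sebox it turned to -0.03 without Rb KO replicate 2, to -0.06 without DKO replicate 2, and to -0.0020 without both Rb KO replicate 3 and DKO replicate 2, an alternative chosen after seeing the data. None of these 6 values passed before or after. Leaving out single arrays gave a range of -0.0645 to 0.1169 for Sebox, -0.3662 to 0.2350 for Cabp5 and -0.4062 to 0.0427 for Grik1 in that comparison. The count of the 8 called in DKO against Rb KO was 0, 0 to 1 leaving out single arrays, and 1 (Car8) without both of those arrays. The 5 falls in Rb KO became 5 to 6 and the 6 in DKO stayed 6 leaving out single arrays.

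All genes called in DKO against Rb KO numbered 617, 253 to 859 leaving out single arrays (302 and 300 without Rb KO replicate 1 or 3, 271 and 253 without DKO replicate 1 or 3), 1351 with array weights and 227 without both arrays. In DKO against WT 7113 of 24259 genes became 4330 of 7843 when only genes above background in at least 3 arrays were tested. In Rb KO against WT 5923 of 24259 became 4020 of 7843. The count was lower and the share called was higher in both. Same-numbered arrays correlated at -0.162 to 0.145 in their deviations from group means, and not every array correlated best with its own number. With the replicate number as a block the calls of the 8 were unchanged, at 6, 8 and 0, and all genes called were 5453, 6666 and 501. Signal over background limits Sebox, Irx6 and most mutant readings of the 4 markers.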
